A study of Rattus norvegicus with 6 samples.

Results

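The complement gene C3 and 5 genes of antigen presentation (Cd74, RT1-Da, RT1-Ba, RT1-Bb and B2m) were followed in rat kidney RNA. They are 6 of the 21986 genes in the expression table. The table lists genes by Ensembl ID and chromosome, so the 6 were found by an ID chosen for each name, and all 6 IDs were present on the chromosome expected for that name. No sequence or annotation that pairs the IDs with names was used, so the identities rest on the chosen IDs and on the chromosome. All 6 passed the filter on low values (a mean of at least 0.5 FPKM over all libraries, met by 14139 genes), and none was dropped.

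The tissue was kidney of male Wistar rats, labelled WT, with 3 libraries from the FSGS model and 3 from controls. FSGS is focal segmental glomerulosclerosis, scarring of part of the glomeruli, the filtering units of the kidney. FSGS rats had the left kidney removed and were then injected through the tail vein with adriamycin (doxorubicin, a DNA-damaging drug toxic to podocytes), first at 5 mg/kg, 7 days after the operation, and again at 3 mg/kg at 28 days. Control rats were injected with saline and no operation is given for them, so the effects of surgery and of drug cannot be told apart. Age, the time of sampling and whether each library is 1 animal are not stated in the labels, so the p-values describe variation between libraries and part of it may be technical. The titles call all samples untreated while the treatment field gives the procedures; groups follow the group name in the titles.

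Complement is a cascade of plasma and tissue proteins that tags surfaces for clearance, and its pathways meet at C3, whose cleavage products coat targets and recruit leukocytes. C3 is made mainly in the liver, and injured tubular epithelium is a known local source. MHC class II molecules, pairs of an alpha and a beta chain, show peptides to CD4+ T cells. They are carried mainly by dendritic cells, macrophages and B cells, and tubular epithelium can acquire them in inflammation. Cd74 encodes the invariant chain that escorts class II molecules to the compartment where peptides are loaded. In the rat, RT1-Da and RT1-Ba encode alpha chains of the RT1-D and RT1-B molecules (the counterparts of human HLA-DR and HLA-DQ), and RT1-Bb encodes the RT1-B beta chain. B2m encodes the light chain of MHC class I molecules, which nearly all nucleated cells carry.

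Genes of class II share a promoter module of X and Y boxes bound by the RFX and NF-Y complexes, through which the coactivator CIITA acts, and a related module lies upstream of B2m. The RefSeq promoter windows of the 6 genes (build GRCr8, 250 bases before to 50 after the annotated start site, counted with the first transcribed base as 0) were searched on both strands. All 6 had a window, matched by symbol. For the 5 antigen presentation genes, the stretch from -110 to -11 is shown because it holds most of their matches, with the Y box core GATTGG, the X2 box core CGTCA (or its complement) and the X box core GCAAC in capitals. It lies at chr20:4515305-4515404 on the plus strand for RT1-Da, chr20:4576947-4577046 on the plus strand for RT1-Ba, chr20:4604129-4604228 on the minus strand for RT1-Bb, chr18:56527096-56527195 on the plus strand for Cd74 and chr3:129549220-129549319 on the plus strand for B2m, and each is written from 5′ to 3′ along the gene.
RT1-Da: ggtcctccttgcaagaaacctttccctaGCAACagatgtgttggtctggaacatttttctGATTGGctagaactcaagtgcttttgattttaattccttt
RT1-Ba: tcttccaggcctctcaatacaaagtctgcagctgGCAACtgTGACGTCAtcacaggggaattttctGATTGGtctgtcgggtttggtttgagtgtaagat
RT1-Bb: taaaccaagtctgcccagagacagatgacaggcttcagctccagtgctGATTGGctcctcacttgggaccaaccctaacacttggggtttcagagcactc
Cd74: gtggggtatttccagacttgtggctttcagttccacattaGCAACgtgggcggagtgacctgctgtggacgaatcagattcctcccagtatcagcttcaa
B2m: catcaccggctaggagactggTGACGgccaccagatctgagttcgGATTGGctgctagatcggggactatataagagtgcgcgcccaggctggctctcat
The Y box core GATTGG was present in 4 of the 6 windows, those of RT1-Da (-50 to -45), RT1-Ba (-44 to -39), RT1-Bb (-62 to -57) and B2m (-65 to -60), in each on the strand of the gene. It occurred in 14.8% of all 33469 promoter windows of this length. RT1-Da and RT1-Ba also held GCAAC upstream of it, with 27 bases between the cores in each. GCAAC followed by GATTGG at 15 to 40 bases occurred in 0.427% of all windows, and GCAAC alone in 35.1%. Cd74 held GCAAC (-70 to -66) with no GATTGG in its window, where only this exact string was searched and close variants were not. The X box core and this pairing were looked for after the windows had been read, so their presence is a description.

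The X2 box core CGTCA was found in RT1-Ba, where matches on both strands overlap, and in B2m, against 21.2% of all windows. A match to the NF-kappaB consensus GGGRNNYYCC lay in the windows of Cd74, RT1-Ba and B2m (7.51% of all windows). R is A or G, Y is C or T and N is any base. This consensus reads nearly alike on both strands, so the overlapping matches on both strands in Cd74 and RT1-Ba share a single stretch in each. The interferon-stimulated response element core (TTTC, any 2 bases, TTTC) was found in B2m alone (3.92% of all windows), and the interferon-gamma activated site TTCNNNGAA in none of the 6 (8.87% of all windows). In the C3 window, the only motif matched was GCAAC, on the opposite strand, at -140 to -136 and -105 to -101. A match is a run of letters in these windows, and binding was not measured.

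**Figure D1:**
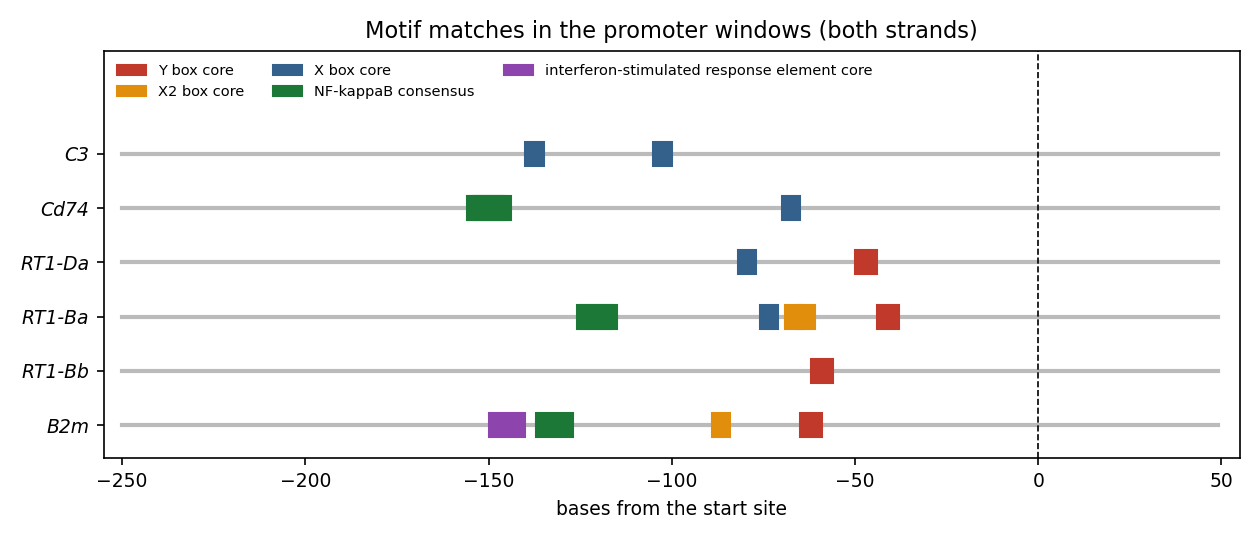
Positions of motif matches in the promoter windows of the 6 genes, in bases from the annotated start site (dashed line); each grey line is a window and each coloured block a match on either strand. The Y box core lies between -65 and -39 in RT1-Da, RT1-Ba, RT1-Bb and B2m, and the X box core lies upstream of it in RT1-Da and RT1-Ba.

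All 6 genes were higher in FSGS kidneys than in control kidneys, C3 by 10.6 times in mean level (6.35 times without FSGS replicate 3, the highest library for this gene) and the others by 2.30 to 3.05 times. In each gene the 3 FSGS values lay above the 3 control values. Each rise passed the limma test on log2(FPKM + 1) at an adjusted p under 0.05. FPKM is a fragment number that the authors divided by gene length and library size, and limma's p-values carry a Benjamini-Hochberg adjustment taken across the 14139 tested genes. These counts stand against a broad background. By the same limma test 27.0% of tested genes were higher in FSGS, 17.0% were lower, and in 34.6% all FSGS values lay above all control values. The median log2 change was 1.36 over the 6 genes and 0.11 over all tested genes, FSGS minus control.

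**Figure D2:**
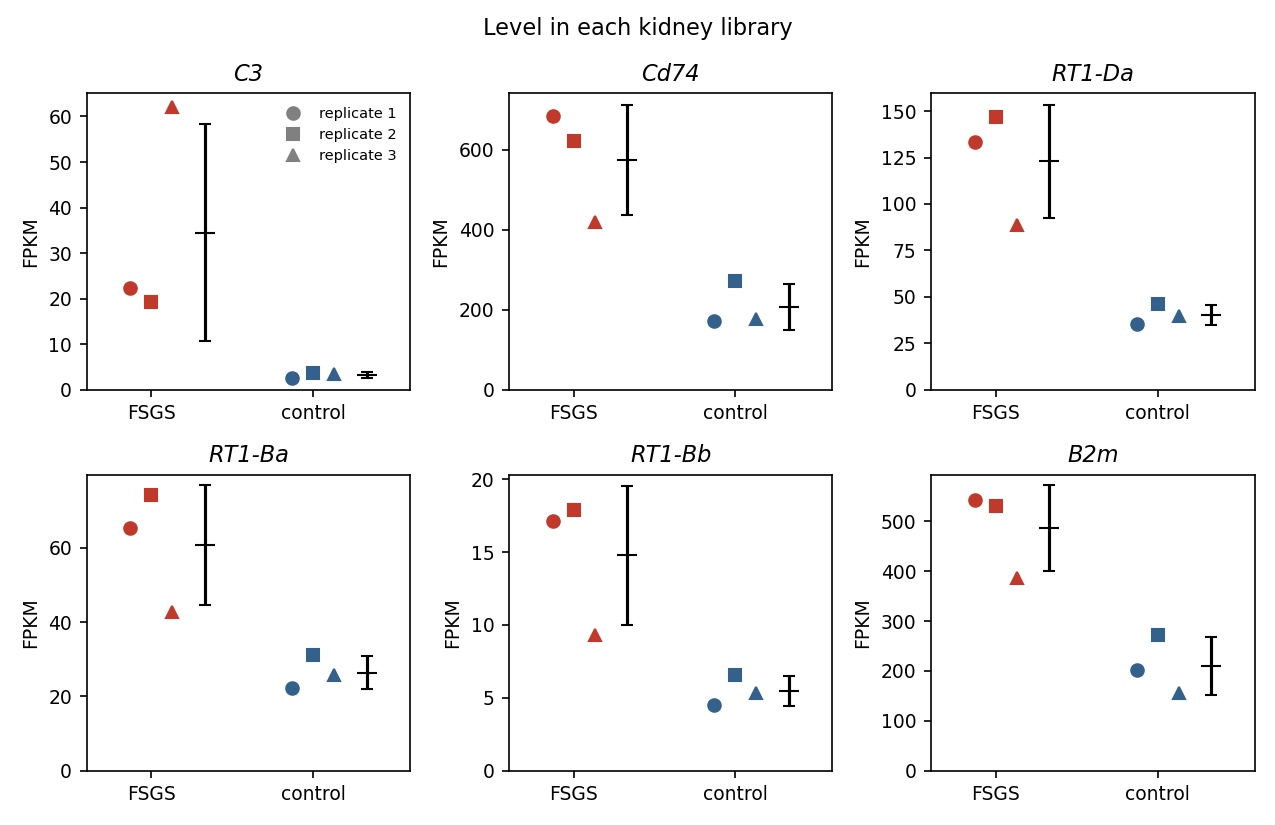
FPKM of each gene (vertical axes, each from 0) in the 3 FSGS and the 3 control libraries, with symbols for the replicate and black bars for mean ± SD (n = 3). The groups do not overlap in any panel, and FSGS replicate 3 is the highest FSGS library for C3 and the lowest for the other 5 genes.

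C3, the central complement component (ENSRNOG00000046834, chromosome 9), was at 22.3, 19.2 and 62.1 FPKM in FSGS replicates 1, 2 and 3, against 2.56, 3.73 and 3.50 FPKM in control replicates 1, 2 and 3. One FSGS library was far above the other 2, and even the lowest FSGS value was 5.14 times the highest control value. The means were 34.5 ± 23.9 FPKM in FSGS and 3.26 ± 0.62 FPKM in controls (SD, n = 3 each). The log2 change was 2.87 ± 0.38 (SE; limma adjusted p = 0.000499), and 70 of the tested genes (0.495%) had a larger increase. The pseudocount lowers the log2 change of a gene this low in controls, and with a pseudocount of 0.1 it was 3.17 (limma). Without FSGS replicate 3 the ratio of means was 6.35 and the log2 change 2.36 (limma). By rank of level within each library, C3 stood at 2476, 2656 and 606 of all genes in FSGS replicates 1, 2 and 3, against 9785, 8475 and 8087 in control replicates 1, 2 and 3. Ranks do not depend on how a library is scaled as a whole.

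Cd74, the class II invariant chain (ENSRNOG00000018735, chromosome 18), was at 684, 621 and 420 FPKM in FSGS replicates 1, 2 and 3, against 172, 273 and 176 FPKM in control replicates 1, 2 and 3. It was the most abundant of the 6 in FSGS and ranked 49 of all genes by mean FSGS level, against 226 by mean control level. The means were 575 ± 138 FPKM in FSGS and 207 ± 57.0 FPKM in controls (SD, n = 3 each), a ratio of 2.78, and the lowest FSGS value was 1.54 times the highest control value. The log2 change was 1.47 ± 0.24 (SE; limma adjusted p = 0.00139). Among the 427 nuclear genes with a mean of at least 100 FPKM, of which Cd74 and B2m are 2, 21.8% were higher in FSGS by the same test.

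RT1-Da, the RT1-D alpha chain (ENSRNOG00000032844, chromosome 20), was at 133, 147 and 88.7 FPKM in FSGS replicates 1, 2 and 3, against 35.4, 46.1 and 39.6 FPKM in control replicates 1, 2 and 3. Its mean level was 3.05 times higher in FSGS, the largest ratio of the 3 class II chains followed here. The means were 123 ± 30.5 FPKM in FSGS and 40.4 ± 5.40 FPKM in controls (SD, n = 3 each). The log2 change was 1.56 ± 0.20 (SE; limma adjusted p = 0.000457), and 482 tested genes (3.41%) rose more.

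RT1-Ba, the RT1-B alpha chain (ENSRNOG00000000451, chromosome 20), was at 65.4, 74.2 and 42.8 FPKM in FSGS replicates 1, 2 and 3, against 22.3, 31.1 and 25.8 FPKM in control replicates 1, 2 and 3. Here the groups lay closer, the lowest FSGS value being 1.38 times the highest control value. The log2 change was 1.15 ± 0.21 (SE; limma adjusted p = 0.00281), with means of 60.8 ± 16.2 FPKM in FSGS and 26.4 ± 4.42 FPKM in controls (SD, n = 3 each).

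RT1-Bb, the beta chain that pairs with RT1-Ba (ENSRNOG00000032708, chromosome 20), was at 17.2, 17.9 and 9.29 FPKM in FSGS replicates 1, 2 and 3, against 4.53, 6.59 and 5.32 FPKM in control replicates 1, 2 and 3. It was the least abundant of the 3 class II chains followed here in every library. The means were 14.8 ± 4.78 FPKM in FSGS and 5.48 ± 1.04 FPKM in controls (SD, n = 3 each), and the log2 change was 1.25 ± 0.24 (SE; limma adjusted p = 0.00333). Of the 4383 nuclear genes with a mean of 10 to 100 FPKM, which take in C3, RT1-Da, RT1-Ba and RT1-Bb, 25.5% were higher in FSGS by this test. RT1 genes belong to a polymorphic family with related copies. The mapping of reads from Wistar alleles to a reference haplotype was not tested here, and may affect the level of each chain.

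B2m, the class I light chain (ENSRNOG00000017123, chromosome 3), was at 543, 530 and 387 FPKM in FSGS replicates 1, 2 and 3, against 202, 273 and 156 FPKM in control replicates 1, 2 and 3. It ranked 63 of all genes by mean FSGS level and 219 by mean control level. The means were 486 ± 86.3 FPKM in FSGS and 210 ± 58.9 FPKM in controls (SD, n = 3 each), a ratio of 2.32, and the log2 change was 1.23 ± 0.23 (SE; limma adjusted p = 0.00258). Relative spread was larger among controls for B2m, at 17.7% of the mean in FSGS and 28.0% in controls. The same held for Cd74, at 24.0% in FSGS and 27.5% in controls. It was larger in FSGS for C3, at 69.3% in FSGS and 19.0% in controls. For RT1-Da, RT1-Ba and RT1-Bb it was 24.8%, 26.6% and 32.3% in FSGS, against 13.4%, 16.7% and 19.0% in controls.

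**Figure D3:**
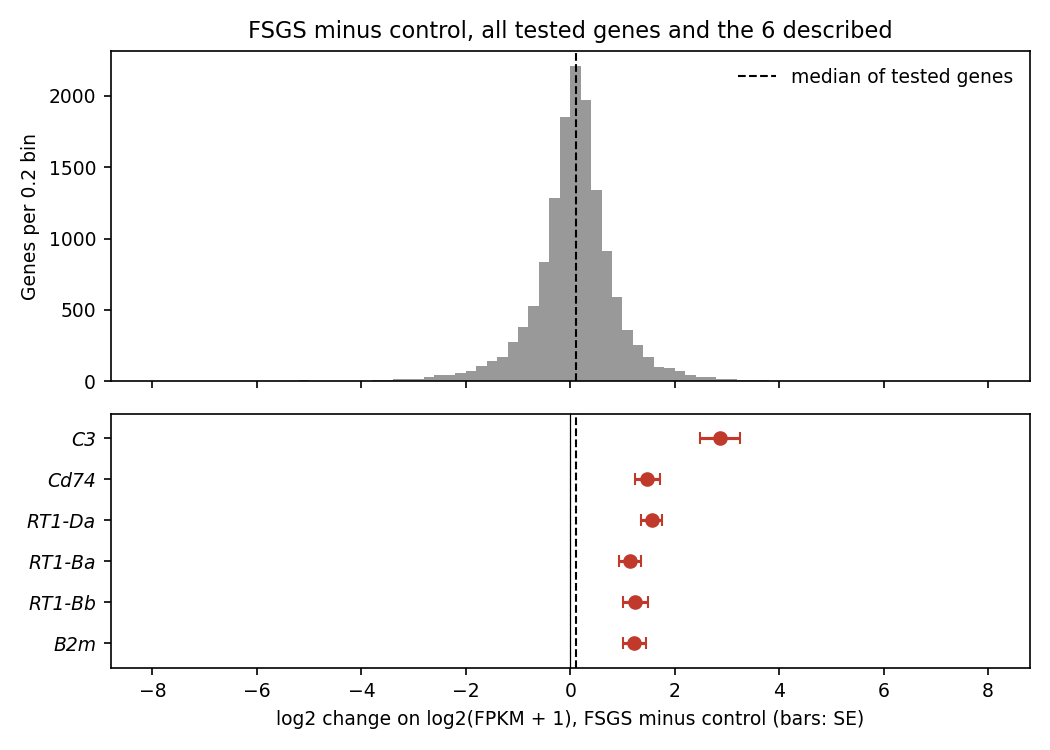
Histogram of log2 changes (FSGS minus control, on log2(FPKM + 1)) over the 14139 tested genes, above the changes of the 6 genes with their SE. The 6 lie between 1.15 (RT1-Ba) and 2.87 (C3), to the right of the median of tested genes at 0.11 (dashed line).

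FPKM is scaled for gene length, so levels can be set beside each other. In FSGS the order of mean levels was Cd74, B2m, RT1-Da, RT1-Ba, C3 and RT1-Bb. The ranges of Cd74 and B2m overlapped there, as did those of RT1-Ba and C3, while the remaining neighbours did not overlap. In controls the order was B2m, Cd74, RT1-Da, RT1-Ba, RT1-Bb and C3, and B2m and Cd74 were the only neighbours that overlapped. C3 was above RT1-Bb in all 3 FSGS libraries and below it in all 3 control libraries.

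Ratios between genes within a library do not depend on its scaling. In all, 6 such ratios were tested by exact two-sided permutation, for which 3 against 3 libraries cannot give a p below 0.1. Those of RT1-Da to RT1-Ba, C3 to Cd74 and Cd74 to B2m were added after the data were seen, so their p-values are descriptive. The summed level of RT1-Da, RT1-Ba and RT1-Bb was 216, 239 and 141 FPKM in FSGS replicates 1, 2 and 3, against 62.2, 83.8 and 70.7 FPKM in control replicates 1, 2 and 3. Cd74 was 3.17, 2.60 and 2.98 times this sum in FSGS replicates 1, 2 and 3, against 2.77, 3.25 and 2.49 times in control replicates 1, 2 and 3. The groups overlapped, with a log2 difference of 0.04 (exact p = 0.8). B2m was 2.51, 2.21 and 2.75 times the sum in FSGS replicates 1, 2 and 3, against 3.25, 3.25 and 2.204 times in control replicates 1, 2 and 3, which overlapped too (log2 difference -0.20, exact p = 0.4). Likewise overlapping was the ratio of Cd74 to B2m, at 1.26, 1.17 and 1.08 in FSGS replicates 1, 2 and 3, against 0.852, 1.00 and 1.13 in control replicates 1, 2 and 3 (log2 difference 0.25, exact p = 0.2). With this few libraries, these p-values do not show that the genes rose equally.

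Among the class II chains, RT1-Da was 2.04, 1.98 and 2.07 times RT1-Ba in FSGS replicates 1, 2 and 3, against 1.58, 1.48 and 1.54 times in control replicates 1, 2 and 3. These ratios were close within each group, with log2 means of 1.02 ± 0.03 in FSGS and 0.62 ± 0.05 in controls (SD, n = 3 each). Their log2 difference of 0.40 left no overlap (exact p = 0.1, adjusted over the 6 ratios 0.2). RT1-Ba was 3.81, 4.14 and 4.61 times RT1-Bb in FSGS replicates 1, 2 and 3, against 4.93, 4.72 and 4.84 times in control replicates 1, 2 and 3. This ratio was lower in FSGS without overlap (log2 difference -0.21, exact p = 0.1, adjusted 0.2), with FSGS replicate 3 nearest the controls. It turned to 0.15 when 5 FPKM was added to each value, an amount close to the level of RT1-Bb in controls. C3 was 0.0326, 0.0309 and 0.148 times Cd74 in FSGS replicates 1, 2 and 3, against 0.0149, 0.0137 and 0.0199 times in control replicates 1, 2 and 3. The log2 difference was 1.73 (exact p = 0.1, adjusted 0.2), and 0.99 without FSGS replicate 3. It was 0.65 (exact p = 0.6) when 5 FPKM was added to each value, an amount above the level of C3 in controls.

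**Figure D4:**
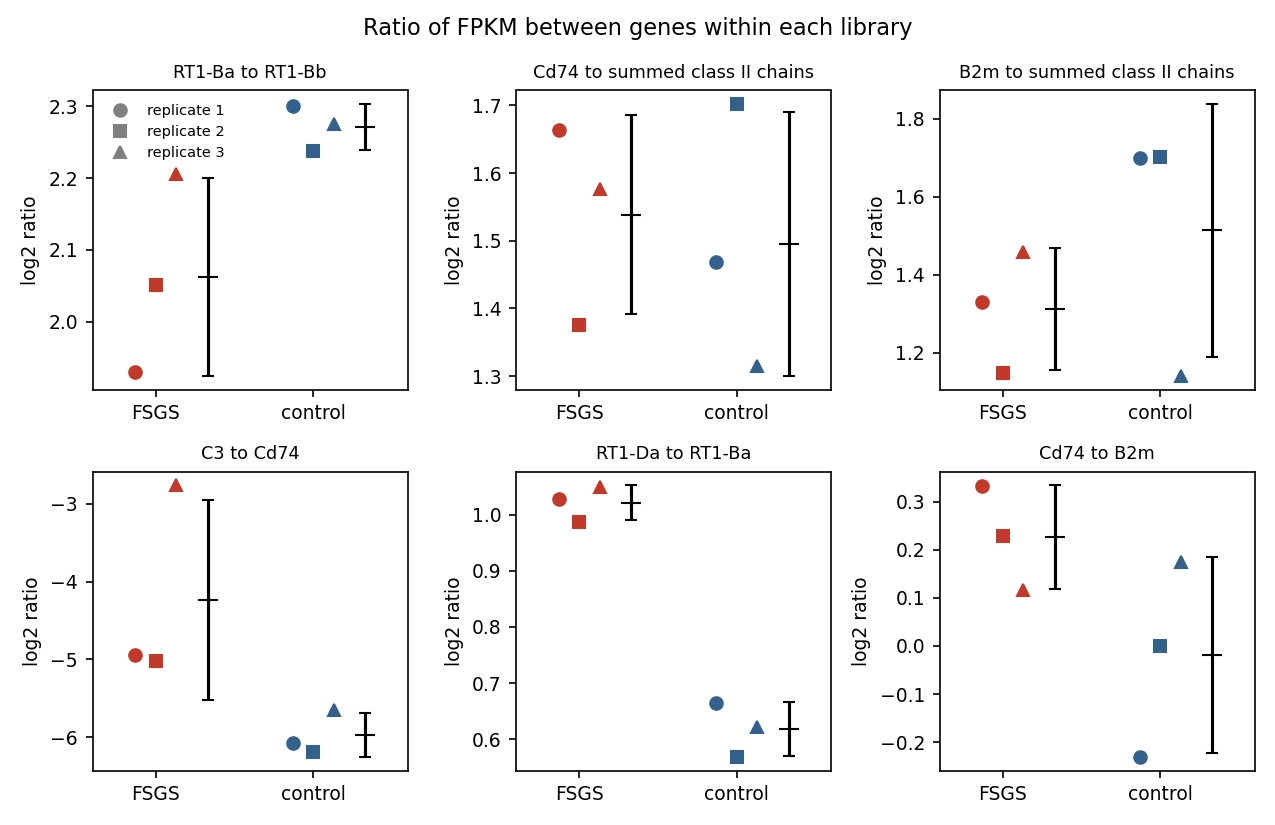
Log2 ratios of FPKM between genes within each library (vertical axes, which differ between panels and do not start at 0), with symbols for the replicate and black bars for mean ± SD (n = 3). The groups do not overlap for RT1-Da to RT1-Ba, RT1-Ba to RT1-Bb and C3 to Cd74, and overlap in the other 3 panels.

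C3 and the antigen presentation genes departed from their FSGS means in opposite directions, a contrast that rests on FSGS replicate 3. There C3 was 0.85 above the log2 of its FSGS mean. In that library Cd74 was at -0.45, RT1-Da at -0.47, RT1-Ba at -0.50, RT1-Bb at -0.67 and B2m at -0.33. FSGS replicate 3 was the lowest FSGS library for these 5 genes and the highest for C3 as deposited and under each of the 4 other scalings tried. Of the 3814 genes called higher in FSGS, this library was the highest of its group in 19.9% and the lowest in 49.5%. Among controls, replicate 2 was highest for all 6 genes as deposited, as it was in 57.6% of the genes called higher. For C3 that place passed to control replicate 3 under 3 of the scalings.

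**Figure D5:**
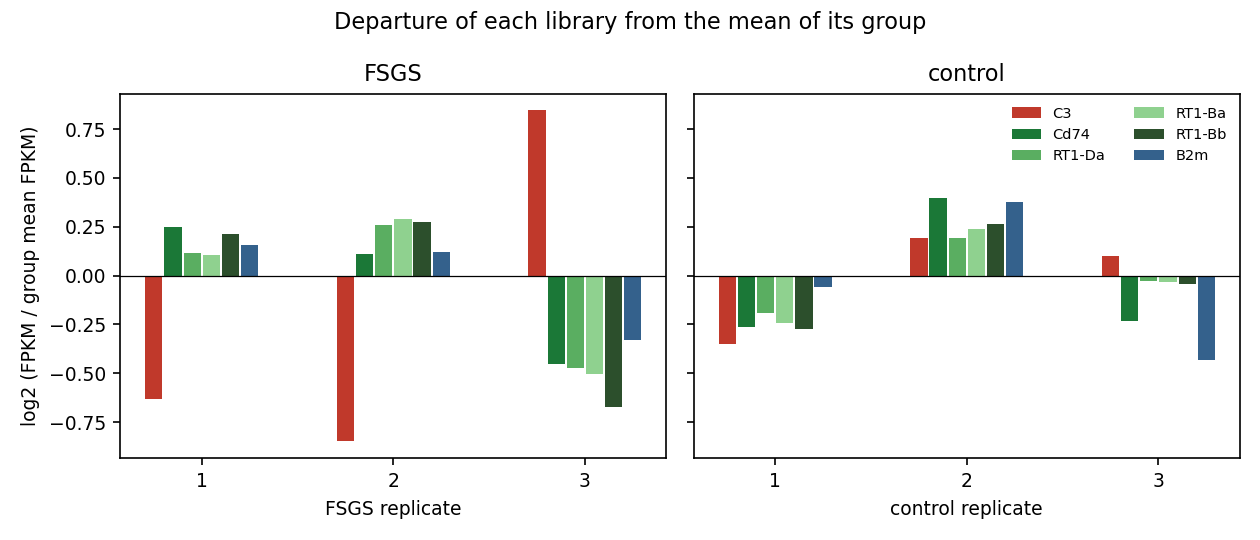
Log2 of each library's FPKM over the mean of its group (vertical axis), by replicate in FSGS (left) and controls (right), 1 bar per gene. In FSGS replicate 3 the bar of C3 is at 0.85 and those of the other 5 genes lie between -0.67 and -0.33.

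The libraries differed in composition along with the groups. Summed FPKM was 754892 to 824403 in FSGS and 614047 to 691777 in controls, and mitochondrially encoded genes made up 64.0% to 71.7% of it in FSGS and 51.6% to 62.9% in controls, highest in FSGS replicate 3. After rescaling without the mitochondrial and the 20 most abundant nuclear genes, C3 was at 21.8, 20.04 and 70.5 in FSGS replicates 1, 2 and 3, against 2.32, 3.44 and 3.67 in control replicates 1, 2 and 3. Cd74 was then at 669, 649 and 477 in FSGS replicates 1, 2 and 3, against 156, 251 and 185 in control replicates 1, 2 and 3. The groups of all 6 genes stayed apart under each scaling. As deposited, all FSGS values lay above all control values in 34.6% of tested genes, and this share was not counted under the other scalings. In whole kidney, more cells carrying a transcript and more transcript per cell cannot be told apart. Genes that mark leukocytes, kidney cell types and the rest of the complement, class I, class II and interferon pathways were listed by symbol, and 0 of these 82 could be paired with an ID, so neither the labelled tissue nor a change in leukocyte content was tested.

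The genes whose pattern over the 6 libraries was most like that of C3 and of Cd74 were sought among 7604 other nuclear genes with a mean of at least 5 FPKM. For C3 this was ENSRNOG00000014117 on chromosome 19 (Pearson r of log2 values 0.995). It was at 7.34, 8.01 and 20.2 FPKM in FSGS replicates 1, 2 and 3, against 1.32, 1.74 and 2.06 FPKM in control replicates 1, 2 and 3, so it too was highest in FSGS replicate 3. For Cd74 it was ENSRNOG00000000795 on chromosome 20 (r = 0.999), at 41.0, 35.9 and 23.1 FPKM in FSGS replicates 1, 2 and 3, against 6.81, 11.7 and 6.71 FPKM in control replicates 1, 2 and 3. An r of at least 0.95 was reached by 129 genes for C3 and by 689 for Cd74. The libraries form separate groups, and a shared difference between groups adds to such values. Between C3 and the antigen presentation genes, whose groups also lay apart, r was 0.715 (RT1-Bb) to 0.813 (RT1-Da). All these values are given without a test.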

How the data were processed

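Kidney RNA of 6 rat libraries (3 FSGS, 3 control) was analysed. Per the labels' protocols, poly(A) RNA was made into dUTP strand-marked libraries and sequenced as paired ends. Tools listed in the submitters' processing notes, with no role stated, are HISAT2 2.2.1, StringTie 2.1.6, cutadapt 1.9, edgeR and DESeq2. Neither build nor gene annotation was given in the sources used here. Per the file header, the authors deposited FPKM. The table has no counts, so the depth is unknown and counting intervals are left out. Ratios of low values between libraries showed no steps of whole reads (at most 12.8% of genes in a log2 window of 0.05). That check used 16 to 136 genes per pair of libraries, so it could miss steps.

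The 14139 of 21986 genes averaging 0.5 FPKM or more were transformed as log2(FPKM + 1) and fitted by group with limma 3.58.1 (R 4.3.3) with a mean-variance trend, and adjustment followed Benjamini-Hochberg at a threshold of 0.05. Changes are FSGS minus control. Ratios used no pseudocount and two-sided exact permutation tests (scipy 1.17.1). Within groups log2 values correlated at 0.977 to 0.986 across genes, and no libraries were identical.

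The 6 genes, the gene lists, the ratios and the tests were chosen with earlier results of these data known. The named genes are these 6, the 1 other ID most alike in pattern to C3, and the 1 most alike to Cd74. The RefSeq table (GRCr8) carried an Ensembl ID in 0 of 47357 rows. Promoter sequences are from RefSeq. The alternatives changed the pseudocount, the filter, the scaling or the limma options, used the replicate number as a block, or left out each library.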

Additional observations from a re-analysis of the deposited data

How the results depend on the processing

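The 6 genes kept their direction and their call in limma under all 17 alternatives. Log2 changes ranged from 2.10 to 3.18 for C3, 1.19 to 1.76 for Cd74, 1.28 to 1.87 for RT1-Da, 0.88 to 1.38 for RT1-Ba, 0.89 to 1.53 for RT1-Bb and 0.94 to 1.51 for B2m, and the highest limma adjusted p of any was 0.0172 (RT1-Bb). The 2 genes named for a similar pattern did so too. The median log2 change of all tested genes was 0.007 with median-of-ratios scaling, 0.01 with quantile normalization, -0.12 after rescaling to TPM and 0.22 after rescaling without the most abundant genes, against 0.11 as deposited. Calls were common among all tested genes, so the calls of the 6 stand against that background. Genes called, higher and lower together, numbered 6222 of 14139 in the main fit. They numbered 3672 of 7646 at a mean of at least 5 FPKM, where fewer genes were tested. The most, 7904 of 14139, came after rescaling without the mitochondrial and most abundant genes. No ratio could pass the threshold by exact permutation in this design. The ratio of Cd74 to the summed class II chains ranged from -0.05 to 0.15 when single libraries were left out, and was -0.047 without control replicate 3 and -0.019 without FSGS replicate 1. That of RT1-Ba to RT1-Bb turned to 0.15 with a pseudocount of 5. The ratios of RT1-Da to RT1-Ba (0.38 to 0.43) and of C3 to Cd74 (0.65 to 2.12), which like that of Cd74 to B2m were added after the data were seen, kept their sign, as did that of B2m to the summed chains (-0.39 to -0.11). With the replicate number as a block, C3 changed by 2.87 and all 6 genes stayed called. In that setting 6900 of the 14139 tested genes were called, higher and lower together. Between same-numbered libraries, deviations from the group means had correlations of 0.132, 0.032 and 0.023, and between others -0.124 to 0.09. FSGS replicates 1 and 2 each correlated best with the control of the same number, and FSGS replicate 3 with control replicate 2 (0.09). These low values do not settle whether the numbers mark pairs, and the main fit did not take them as pairs. Depth, and its limit on low values, is unknown.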
